A study of Mus musculus with 6 samples.

Results

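Neuregulin, ErbB and ERK signalling was followed through 9 named genes among the 24015 genes counted in each library of mouse sciatic nerve. The members were given by name. The 5 upstream members are the ligand *Nrg1*, the receptors *Erbb2* and *Erbb3*, the phosphatase *Ptpn11* and the kinase *Mapk3*, and the 4 feedback members are *Spry2*, *Spry4*, *Dusp6* and *Etv5*, which ERK activity induces. In this pathway neuregulin-1 on the axon surface binds ErbB3 on the Schwann cell, and ErbB3, which has hardly any kinase activity of its own, signals as a heterodimer with ErbB2. The signal passes through adaptors, the phosphatase Shp2, Ras and Raf to the ERK kinases, and it controls survival and proliferation of Schwann cells and the thickness of their myelin. ERK activity in turn raises the expression of inhibitors such as Sprouty proteins and Dusp6, whose transcripts are widely used as a readout of the pathway.

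The study addresses the role of Rnf40, a subunit of the E3 ligase that attaches a single ubiquitin to histone H2B, in peripheral myelination. Control mice carried floxed *Rnf40* alleles (*Rnf40* fl/fl) without Cre, and *Rnf40ΔSC* mice carried the same alleles together with a *Dhh::Cre* transgene, which is active in the Schwann cell lineage from the late precursor or early immature stage onwards. Nerves of both genotypes were taken at postnatal day 14, and each of the 3 control and 3 *Rnf40ΔSC* libraries was made from a pool of 3 nerves. Fibroblasts, perineurial, endothelial and immune cells of the nerve keep a functional *Rnf40* and contribute to the RNA. The labels give a mixed 129SvJ/C57Bl/6J background for all mice, whereas the methods name C3H in place of 129SvJ.

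Control replicates 1, 2 and 3 held 1317167, 1992622 and 2468765 reads counted on genes, and *Rnf40ΔSC* replicates 1, 2 and 3 held 2184268, 1459387 and 2186710, so that 1 read stood for between 0.405 and 0.759 CPM (reads scaled by library size). Levels are given below as normalised read counts, which are reads scaled by TMM (a correction for library composition) to the mean library size. A gene was called higher or lower in *Rnf40ΔSC* nerves when the adjusted p of edgeR's quasi-likelihood test was at most 0.05 over the 11371 genes with enough reads to be tested. By this rule 15.4% of the genes tested were called higher and 16.2% lower, shares against which the counts of called genes below can be read. The libraries measure transcripts, not phosphorylation of the kinases.

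The targeted gene *Rnf40* had 82, 116 and 165 reads in control and 109, 75 and 118 in *Rnf40ΔSC* libraries, which corresponds to 130, 126 and 142 against 90.2, 90.4 and 94.2 normalised read counts. All 3 *Rnf40ΔSC* libraries lay below all 3 control libraries (log2 fold change -0.54, with a standard error, SE, of 0.14, and adjusted p = 0.00242 by edgeR). Scaled by total counts, it had a log2 fold change of -0.27 and missed the threshold (adjusted p = 0.12 by edgeR, range over 13 alternatives 0.00235 to 0.12). *Rnf20*, which encodes the partner subunit, had 127, 128 and 112 normalised read counts in control and 176, 184 and 137 in *Rnf40ΔSC* libraries (log2 fold change 0.44, adjusted p = 0.00998 by edgeR). The difference for *Rnf20* was not past the threshold without control replicate 3 (0.37, adjusted p = 0.087 by edgeR), without *Rnf40ΔSC* replicate 1 (0.40, adjusted p = 0.057) or with DESeq2, another test for counts (0.45, adjusted p = 0.0665), over a range of 5.82e-05 to 0.087 for 13 alternatives.

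One library stood apart within its genotype. The 8 skeletal muscle markers summed to 8003, 5983 and 4395 normalised read counts in control and to 161, 399 and 5539 in *Rnf40ΔSC* libraries, with *Myh4* as the most abundant gene and none of the 8 at 0 in all libraries. *Rnf40ΔSC* replicate 3 thus held as much muscle RNA as the controls, while replicates 1 and 2 held little. On principal components of the 500 most variable genes, control libraries lay at -24.6, -23.2 and -20.9 on the first component, and *Rnf40ΔSC* libraries at 28.1, 27.1 and 13.6, the last being replicate 3. Each result on a member is therefore also given without *Rnf40ΔSC* replicate 3.

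Markers of the Schwann cell lineage checked the tissue and moved with genotype. Their sum over 9 genes was 266166, 305057 and 288512 normalised read counts in control against 76269, 72104 and 73297 in *Rnf40ΔSC* libraries, 8 of 9 genes were called lower and 1 (*Egr2*) higher, and none was at 0. *Egr2* (log2 fold change 0.36) was not called without control replicate 3 (0.30, adjusted p = 0.0873 by edgeR, range over 13 alternatives 7.93e-06 to 0.0873). *Pmp22*, a protein of compact peripheral myelin, was lower by a log2 fold change of -2.13 and *Mbp*, the myelin basic protein, by one of -1.63. *Sox10*, the lineage transcription factor, which was chosen after its values were seen, had 957, 1055 and 1084 normalised read counts in control and 629, 574 and 592 in *Rnf40ΔSC* libraries (log2 fold change -0.79, SE 0.09, adjusted p = 8.80e-09 by edgeR). Of 7 markers of immature and promyelinating Schwann cells, 4 were called higher and 2 lower, and the list summed to 1302, 1348 and 1274 in control and 2673, 3363 and 2705 in *Rnf40ΔSC* libraries. *Pou3f1*, the most abundant of them, rose by 2.05 on the log2 scale, *Pou3f2* by 1.82 and *Ncam1* by 1.16, whereas *L1cam* fell by 1.87. The other 2 called genes of the list, named after their values were seen, were *Sox2*, which rose by 1.96, and *Ngfr*, which fell by 0.90.

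Markers of the other cells of the nerve were mostly lower in *Rnf40ΔSC* nerves. For fibroblasts 5 of 6 genes were called lower and the sums were 104242, 101693 and 110316 in control and 77862, 74678 and 73735 in *Rnf40ΔSC* libraries, with *Col3a1* as the most abundant gene. For perineurial cells 3 of 4 tested genes were called lower, with *Itgb4* the most abundant (log2 fold change -1.69), at sums over all 5 listed genes of 1653, 1919 and 1891 against 1090, 894 and 994. *Itgb4* encodes an integrin subunit that Schwann cells express as well. For endothelial cells 4 of 7 genes were called lower, at sums of 1385, 1236 and 1416 against 906, 918 and 1059, with *Cdh5* most abundant and *Cldn5* most changed (-1.12). For pericytes and smooth muscle 3 of 6 genes were called lower, at sums of 1839, 1308 and 1509 against 981, 956 and 1190, with *Pdgfrb* most abundant. For macrophages 4 of 7 genes were called lower, at sums of 673, 587 and 638 against 431, 413 and 460, with *Csf1r* most abundant. In these 5 lists every *Rnf40ΔSC* library had a smaller sum than every control library with TMM scaling. Scaled by total counts instead, the sums for endothelial cells and those for pericytes and smooth muscle overlapped between genotypes. For adipocytes 2 of 6 genes were called lower, at sums of 1956, 1482 and 2531 against 1654, 1491 and 1164, with *Fabp4* most abundant and *Plin1* most changed (-1.31). Of 3 neuronal genes tested, *Snap25* was called higher (1.496) and *Syp*, the most abundant, lower (-0.80), and the sums over all 6 listed genes were 52.4, 63.2 and 74.0 against 61.3, 54.2 and 56.7. *Snap25* missed the threshold with DESeq2 without a fold-change prior (1.53), and *Syp* did so in 6 of 13 alternatives, among them the fits without control replicate 2 (-0.82), control replicate 3 (-0.54) or *Rnf40ΔSC* replicate 1 (-0.70). For proliferation 3 of 5 tested genes were called higher, with *Mki67* most abundant (0.64) and *Aurkb* most changed (1.19), and the sums over all 6 listed genes were 165, 168 and 192 against 262, 262 and 318. *Aurkb* was not called with DESeq2 (1.23) or without control replicate 1 (1.15), control replicate 2 (0.85) or *Rnf40ΔSC* replicate 1 (1.04).

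**Figure D1:**
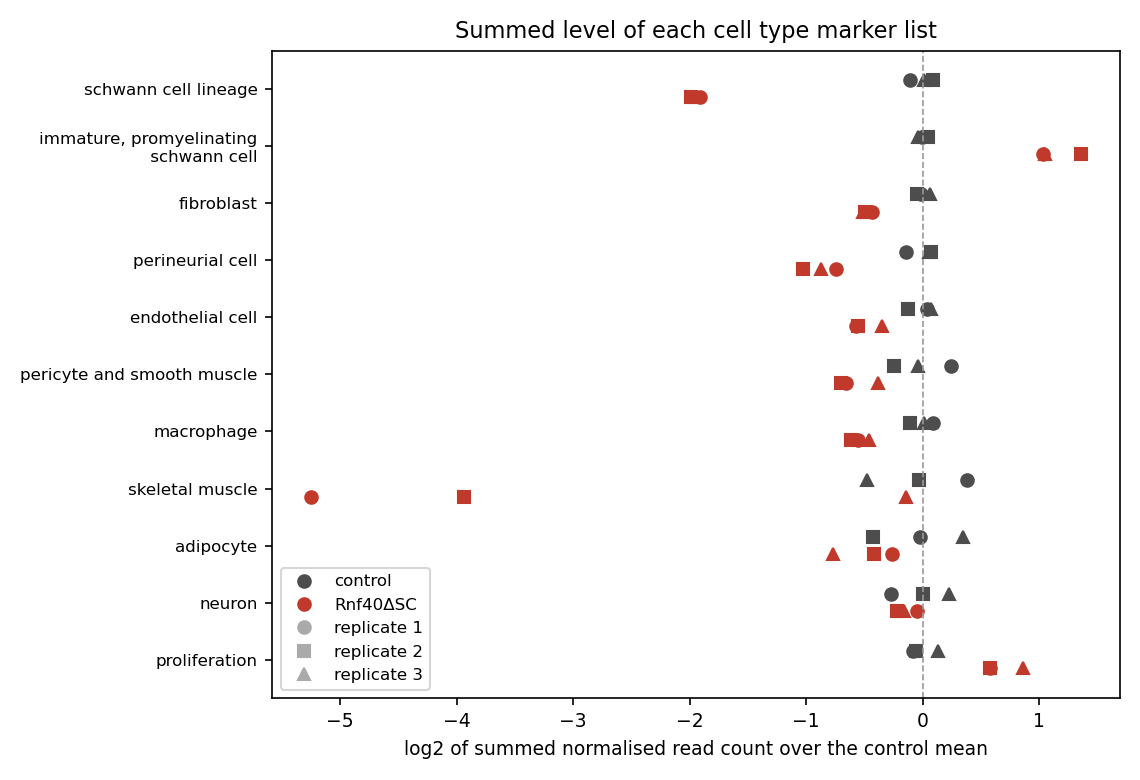
Summed normalised read count of each marker list in each library, as log2 over the control mean (x axis); control libraries are grey, *Rnf40ΔSC* libraries red, and the marker shape gives the replicate. Skeletal muscle splits the *Rnf40ΔSC* libraries, with replicates 1 and 2 at 161 and 399 and replicate 3 at 5539 normalised read counts, among the controls.

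Of the 9 members, 8 had enough reads to be tested. Called were 3 of 8, namely *Mapk3* and *Erbb3* as lower and *Spry2* as higher, while among all 11371 genes tested 31.6% were called, 15.4% as higher and 16.2% as lower. The same 3 members had groups that did not overlap, which was the case for 43.5% of all genes tested. The study's limits on size and level, a change of 0.8 or more on the log2 scale and a mean of 20 or more normalised read counts, were applied here together with edgeR's adjusted p and TMM scaling, whereas the study used DESeq2. Past them was *Mapk3* as 1 of 8, against 8.78% of all genes tested. The share of members called is thus close to that among all genes, and the account below is of the single genes.

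**Figure D2:**
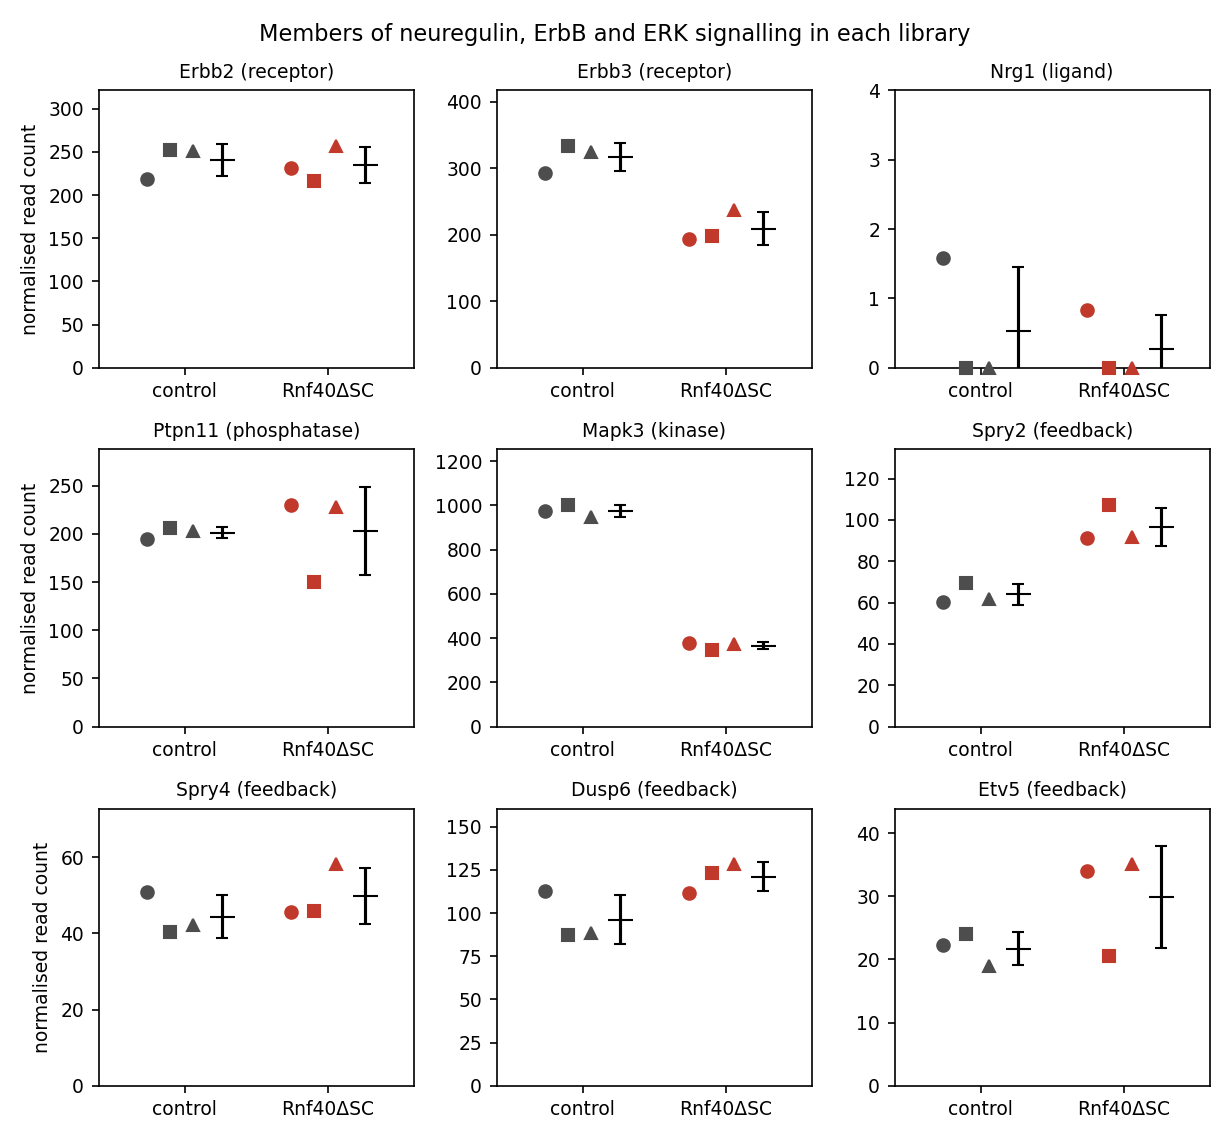
Normalised read count (y axis, from 0) of each member in the 3 control (grey) and 3 *Rnf40ΔSC* (red) libraries, with the mean and SD of each genotype in black. *Mapk3* lies between 949 and 1002 in control and between 348 and 378 in *Rnf40ΔSC* libraries, and *Erbb3* and *Spry2* also show no overlap.

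The ligand *Nrg1* (chromosome 8, 32928500 to 33119581, minus strand, in the GENCODE annotation of mm9) was at the limit of detection. It had 1, 0 and 0 reads in control and 1, 0 and 0 in *Rnf40ΔSC* libraries and was not tested. In the 4 libraries without a read, a count of 0 allows up to 3 reads, or between 1.22 and 2.06 CPM, a limit that covers counting error only. Neuregulin-1 on axons is made from transcripts in neuronal cell bodies, which lie outside the nerve. A difference between genotypes was not detectable at this depth.

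Most other ligands of ErbB receptors were rare as well. Of 11 ligand genes on the pathway list 2 were tested, and *Nrg2*, *Nrg3*, *Nrg4*, *Ereg*, *Areg*, *Epgn* and *Egf* had fewer than 10 reads in every library. *Hbegf*, which encodes the heparin-binding ligand of the EGF receptor and ErbB4, had 52.4, 70.8 and 44.8 normalised read counts in control and 95.2, 83.2 and 92.6 in *Rnf40ΔSC* libraries. Each *Rnf40ΔSC* library was above each control library (log2 fold change 0.70, SE 0.18, adjusted p = 0.00228 by edgeR), and without control replicate 3 the call was lost (0.53, adjusted p = 0.0513, range over 13 alternatives 3.85e-05 to 0.0513). *Tgfa*, a ligand of the EGF receptor, went the other way, from 205, 292 and 238 to 142, 147 and 148 (log2 fold change -0.76, SE 0.12, adjusted p = 4.66e-06 by edgeR), again without overlap.

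Of the proteases that process neuregulins and other ErbB ligands, *Adam10* had 2360, 2521 and 2318 normalised read counts in control and 1199, 1290 and 1077 in *Rnf40ΔSC* libraries. It was lower in 3 of 3 libraries by a log2 ratio of -1.01 (SE 0.08, adjusted p = 3.11e-12 by edgeR). *Adam17*, which cleaves neuregulin-1 and many EGF-like ligands, had 267, 254 and 276 against 240, 184 and 218 (log2 fold change -0.30, adjusted p = 0.0298 by edgeR). The difference for *Adam17* was not past the threshold in 6 of 13 alternatives, among them total-count scaling (-0.04), DESeq2 (-0.30) and the fits without control replicate 1 (-0.30), control replicate 3 (-0.27) or *Rnf40ΔSC* replicate 2 (-0.21), at adjusted p-values between 0.0218 and 0.824 over all alternatives. *Bace1*, which cleaves neuregulin-1 type III and is needed for normal myelin thickness, was not called, with 114, 110 and 122 against 96.0, 115 and 108 (log2 fold change -0.13, adjusted p = 0.506 by edgeR).

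The receptors differed from each other. *Erbb3* (chromosome 10, 128004579 to 128026708, minus strand) had 184, 306 and 377 reads in control and 233, 164 and 297 in *Rnf40ΔSC* libraries, or 292, 333 and 325 against 193, 198 and 237 normalised read counts. All *Rnf40ΔSC* libraries lay below all control libraries, with replicate 3 the highest of its genotype. The mean went from 317 ± 21.7 to 209 ± 24.2 (SD, n = 3 each), which is -0.60 on the log2 scale (SE 0.11, 95% confidence interval -0.82 to -0.38, adjusted p = 3.07e-05 by edgeR), and from -0.60 to -0.70 when *Rnf40ΔSC* replicate 3 was left out. In bulk nerve, fewer cells of a type and less RNA per cell cannot be told apart, and of the 9 markers of the Schwann cell lineage, in which ErbB3 is expressed, 8 were called lower and 1 (*Egr2*, 0.36 on the log2 scale) higher in the same libraries. Their part in the result was not tested.

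*Erbb2* (chromosome 11, 98273784 to 98299030, plus strand) had 138, 231 and 292 reads in control and 280, 179 and 322 in *Rnf40ΔSC* libraries, or 219, 252 and 251 against 232, 216 and 257 normalised read counts. The genotypes overlapped fully. With means of 241 ± 18.7 and 235 ± 20.8 (SD, n = 3 each) the change was -0.04 on the log2 scale (SE 0.11, 95% confidence interval -0.25 to 0.18, adjusted p = 0.82 by edgeR), and -0.10 without *Rnf40ΔSC* replicate 3. The interval holds no change as large as that of *Erbb3*, although the difference between the receptors was not tested. Per kb of exon, *Erbb3* stood at 1.15, 1.15 and 1.12 times the level of *Erbb2* in control and at 0.721, 0.793 and 0.799 times in *Rnf40ΔSC* libraries, so that the ratio was below 1 in each *Rnf40ΔSC* library and above 1 in each control library. *Egfr* was not called (log2 fold change -0.29, adjusted p = 0.154 by edgeR), and *Erbb4* had fewer than 10 reads in every library.

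*Ptpn11* (chromosome 5, 121580542 to 121641406, minus strand) encodes Shp2, the tyrosine phosphatase that carries the signal from ErbB receptors to Ras. It had 195, 206 and 203 normalised read counts in control and 230, 151 and 228 in *Rnf40ΔSC* libraries. The control libraries were close together, and the *Rnf40ΔSC* libraries lay on both sides of them, with replicate 2 the lowest. The mean was 201 ± 5.51 in control and 203 ± 45.4 in *Rnf40ΔSC* nerves (SD, n = 3 each), with a change of 0.03 on the log2 scale (SE 0.13, 95% confidence interval -0.23 to 0.28, adjusted p = 0.898 by edgeR) that was -0.05 without *Rnf40ΔSC* replicate 3.

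Promoter sequences from RefSeq (build GRCm38.p6, 250 bases before to 50 bases after the transcription start) were matched for 5 of the 9 members, *Erbb2*, *Ptpn11*, *Spry2*, *Dusp6* and *Etv5*, and not for *Erbb3*, *Nrg1*, *Mapk3* and *Spry4*. They were searched on both strands for core motifs of factors that act below ERK: CCGGAAG for ETS factors, TGACTCA for AP-1, TGACGTCA for CREB and GCGTGGGCG for EGR factors, none of which contains another. Of 32851 promoters of the same length, 8.86% hold the ETS, 5.2% the AP-1, 1.79% the CREB and 0.612% the EGR motif. Among the members only *Ptpn11* held any, 1 ETS and 1 CREB motif, shown in capitals in its promoter at chr5:121191348-121191647 on the minus strand, written 5′ to 3′.
Ptpn11: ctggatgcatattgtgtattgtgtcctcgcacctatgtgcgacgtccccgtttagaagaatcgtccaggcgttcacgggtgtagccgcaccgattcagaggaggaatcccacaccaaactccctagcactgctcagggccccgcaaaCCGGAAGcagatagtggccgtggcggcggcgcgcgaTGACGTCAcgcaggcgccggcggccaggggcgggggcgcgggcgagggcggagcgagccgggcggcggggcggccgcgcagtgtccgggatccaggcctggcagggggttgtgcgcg

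A match describes the letters and no binding. *Ptpn11*, whose promoter holds motifs of both kinds, is a member whose level was not called different between genotypes.

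Among adaptors, 2 of 8 genes were called higher and 1 lower, beside 15.4% and 16.2% of all genes tested. *Frs2*, the docking protein of FGF and neurotrophin receptors, had 168, 179 and 183 normalised read counts in control and 265, 266 and 264 in *Rnf40ΔSC* libraries, without overlap (log2 fold change 0.58, SE 0.11, adjusted p = 4.61e-05 by edgeR). *Gab2*, a scaffold that binds Shp2, fell from 85.7, 89.3 and 68.0 to 52.2, 35.0 and 54.3 (-0.74, SE 0.19, adjusted p = 0.00258 by edgeR). *Grb2*, the adaptor that brings the exchange factor Sos to receptors, had 93.7, 99.2 and 108 against 142, 140 and 121 (0.41, SE 0.14, adjusted p = 0.0213 by edgeR). The groups did not overlap for any of these adaptors. For *Grb2* the call was lost in 6 of 13 alternatives, with DESeq2 (0.42) and without control replicate 1 (0.37), control replicate 2 (0.39), *Rnf40ΔSC* replicate 1 (0.37) or *Rnf40ΔSC* replicate 2 (0.38), at adjusted p-values between 0.00016 and 0.113 over all alternatives.

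The kinase *Mapk3* (chromosome 7, 133903115 to 133909333, plus strand), which encodes ERK1, showed the largest change of the members. It had 614, 920 and 1102 reads in control and 457, 289 and 466 in *Rnf40ΔSC* libraries, or 975, 1002 and 949 against 378, 348 and 372 normalised read counts. The libraries of each genotype were close together and far from those of the other, and *Rnf40ΔSC* replicate 3 lay between replicates 1 and 2. The mean went from 975 ± 27.0 to 366 ± 15.8 (SD, n = 3 each), which is -1.41 on the log2 scale (SE 0.09, 95% confidence interval -1.60 to -1.22, adjusted p = 3.36e-15 by edgeR), which ranked 64th by p among all genes tested. *Mapk3* fell by 62.4%, and the log2 fold change was as large without *Rnf40ΔSC* replicate 3 (-1.41). In the same libraries 8 of 9 markers of the Schwann cell lineage were called lower and 1 (*Egr2*) higher, and their part in the fall of *Mapk3* was not tested.

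Of the 14 genes from Ras to the ERK-dependent kinases, 3 were called higher and 4 lower, beside 15.4% and 16.2% of all genes tested. *Nras* was lower without overlap, with 413, 391 and 393 normalised read counts in control and 256, 242 and 251 in *Rnf40ΔSC* libraries (log2 fold change -0.67, SE 0.10, adjusted p = 9.72e-07 by edgeR). Further genes of this role were chosen after their values were seen. *Map2k2*, which encodes MEK2, had 100, 101 and 89.5 against 77.0, 66.3 and 63.0 (-0.48, adjusted p = 0.0181 by edgeR), and *Rps6ka3*, which encodes the ERK substrate Rsk2, had 137, 113 and 103 against 152, 139 and 167 (0.40, adjusted p = 0.0208 by edgeR). Both showed no overlap. Neither call held without *Rnf40ΔSC* replicate 3 (-0.40 and 0.34), with DESeq2 (-0.48 and 0.40) or without control replicate 2 (-0.45 and 0.38). The call of *Map2k2* was also lost without control replicate 1 (-0.47) and with total-count scaling (-0.22), and that of *Rps6ka3* without control replicate 3 (0.30), at adjusted p-values of up to 0.288 and 0.164 over all alternatives. The MEK1 gene *Map2k1* and the Raf genes *Braf* and *Araf*, also chosen after their values were seen, had log2 fold changes of -0.22, -0.04 and 0.07 and were not called.

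Inhibitors were called in 1 of 9 tested genes, beside 31.6% of all genes tested. *Spred1*, which recruits neurofibromin to restrain Ras, had 265, 190 and 194 normalised read counts in control and 391, 457 and 415 in *Rnf40ΔSC* libraries. Each *Rnf40ΔSC* library was above each control library (log2 fold change 0.98, SE 0.11, adjusted p = 9.43e-09 by edgeR), also without *Rnf40ΔSC* replicate 3 (1.00). The 4 other tested inhibitors of Ras were not called, and neither were the 4 tested inhibitors of ErbB receptors.

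Among the feedback members, *Spry2* (chromosome 14, 106291166 to 106296036, minus strand), a Sprouty protein that dampens signalling from receptor tyrosine kinases to ERK, was the 1 of 4 that was called. It had 38, 64 and 72 reads in control and 110, 89 and 115 in *Rnf40ΔSC* libraries, or 60.3, 69.7 and 62.0 against 91.1, 107 and 91.8 normalised read counts. All *Rnf40ΔSC* libraries lay above all control libraries. The mean went from 64.0 ± 5.02 to 96.7 ± 9.16 (SD, n = 3 each), which is 0.58 on the log2 scale (SE 0.16, 95% confidence interval 0.25 to 0.91, adjusted p = 0.0054 by edgeR), and 0.62 without *Rnf40ΔSC* replicate 3. The call held under all 13 alternatives. In the same libraries 4 of 7 markers of immature and promyelinating Schwann cells were called higher and 2 lower, and 3 of 5 tested proliferation markers were called higher. Their part in the result was not tested. The promoter of *Spry2* and that of *Dusp6* are given because these feedback members had the smallest adjusted p-values, and neither holds any of the motifs searched, so that no letters are in capitals. They lie at chr14:105896770-105897069 on the minus strand and chr10:99262981-99263280 on the plus strand of GRCm38.p6 and are written 5′ to 3′.
Spry2: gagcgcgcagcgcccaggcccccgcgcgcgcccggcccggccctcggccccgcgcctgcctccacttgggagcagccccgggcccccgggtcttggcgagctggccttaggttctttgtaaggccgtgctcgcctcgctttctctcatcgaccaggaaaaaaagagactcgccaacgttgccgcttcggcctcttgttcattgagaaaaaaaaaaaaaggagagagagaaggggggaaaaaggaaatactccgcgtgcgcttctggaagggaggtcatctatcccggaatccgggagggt
Dusp6: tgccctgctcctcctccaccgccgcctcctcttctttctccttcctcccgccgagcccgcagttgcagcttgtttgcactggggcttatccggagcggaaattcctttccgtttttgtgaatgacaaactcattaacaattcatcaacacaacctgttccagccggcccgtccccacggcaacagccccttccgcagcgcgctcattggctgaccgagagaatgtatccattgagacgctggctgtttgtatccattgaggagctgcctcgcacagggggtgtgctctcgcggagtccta

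*Dusp6* (chromosome 10, 98725865 to 98730122, plus strand), the phosphatase that removes phosphate from ERK in the cytoplasm, had 71, 80 and 103 reads in control and 135, 102 and 161 in *Rnf40ΔSC* libraries, or 113, 87.2 and 88.7 against 112, 123 and 128 normalised read counts. Control replicate 1 reached the level of *Rnf40ΔSC* replicate 1, and the other libraries did not overlap. The mean was 96.2 ± 14.4 in control and 121 ± 8.51 in *Rnf40ΔSC* nerves (SD, n = 3 each), with a change of 0.35 on the log2 scale (SE 0.15, 95% confidence interval 0.06 to 0.65) that missed the threshold (adjusted p = 0.0618 by edgeR). It was past the threshold without control replicate 1 (0.46, adjusted p = 0.0323 by edgeR), with a minimum of 10 reads in every library (0.37, adjusted p = 0.0425) and with total-count scaling (0.62, adjusted p = 0.000995), and the adjusted p ranged from 0.000995 to 0.235 over 13 alternatives. Without *Rnf40ΔSC* replicate 3 the log2 fold change was 0.31.

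*Etv5* (chromosome 16, 22381382 to 22439792, minus strand), an ETS transcription factor, had few reads, 14, 22 and 22 in control and 41, 17 and 44 in *Rnf40ΔSC* libraries, or 22.2, 24.0 and 18.9 against 33.9, 20.5 and 35.1 normalised read counts. *Rnf40ΔSC* replicates 1 and 3 were above all controls, and replicate 2 lay among them. The change was 0.50 on the log2 scale (SE 0.28, 95% confidence interval -0.06 to 1.06, adjusted p = 0.17 by edgeR) and 0.39 without *Rnf40ΔSC* replicate 3, and it was past the threshold with total-count scaling alone (0.77, adjusted p = 0.0242, range over 13 alternatives 0.0242 to 0.467). *Spry4* (chromosome 18, 38745922 to 38760922, minus strand), a second Sprouty gene, had 50.8, 40.3 and 42.2 against 45.5, 45.8 and 58.3 normalised read counts. The genotypes overlapped, with *Rnf40ΔSC* replicate 3 the highest library (log2 fold change 0.19, SE 0.21, 95% confidence interval -0.22 to 0.61, adjusted p = 0.508 by edgeR, and 0.07 without that library).

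**Figure D3:**
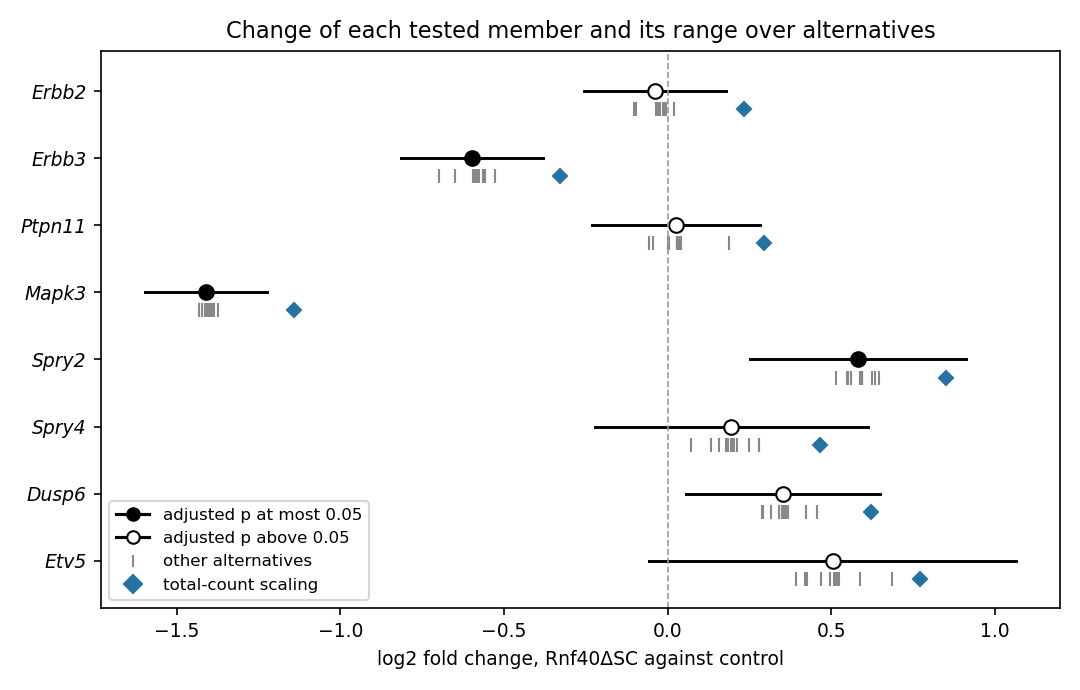
Log2 fold change between *Rnf40ΔSC* and control nerves (x axis) of the 8 tested members, with the 95% confidence interval; filled circles have an adjusted p of at most 0.05 by edgeR. Ticks below give 12 alternatives and diamonds total-count scaling, which moves every gene to the right by about 0.27, so that *Erbb2* goes from -0.04 to 0.23.

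Of the 21 genes on the list of feedback inhibitors and targets, 16 were tested, and 4 were called higher and 2 lower, beside 15.4% and 16.2% of all genes tested. *Spry3*, *Dusp5*, *Dusp9* and *Fosl1* had fewer than 10 reads in every library. *Dusp4*, a nuclear phosphatase of ERK, had 19.1, 9.81 and 25.0 normalised read counts in control and 51.3, 39.8 and 42.3 in *Rnf40ΔSC* libraries (log2 fold change 1.28, SE 0.27, adjusted p = 0.000313 by edgeR). *Egr1*, an immediate early gene of the ERK pathway, had 60.3, 52.3 and 53.4 against 93.6, 80.8 and 87.8 (0.68, SE 0.17, adjusted p = 0.00211 by edgeR). *Epha2*, an Eph receptor induced by ERK, was lower, with 82.6, 65.4 and 75.7 against 48.8, 48.2 and 43.9 (-0.66, SE 0.18, adjusted p = 0.00522 by edgeR). For none of these genes did the genotypes overlap. *Phlda1* (0.74, adjusted p = 0.0103 by edgeR) was the remaining higher and *Epha4* (-0.77, adjusted p = 0.0252) the remaining lower gene, both chosen after their values were seen. *Phlda1* was not called without control replicate 1 (0.71) or 3 (0.72), and *Epha4* was not called in 6 of 13 alternatives, with adjusted p-values up to 0.0707 and 0.156. The call of *Epha2* was lost with total-count scaling (-0.39, adjusted p = 0.0874 by edgeR) and with DESeq2 (-0.65, adjusted p = 0.0554), over a range of 0.00545 to 0.0874.

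Across the roles of the pathway list, 55 of 71 genes were tested, 11 were called higher, 11 lower and 33 neither, beside 15.4% called higher and 16.2% lower among all genes tested, with a median log2 fold change of 0.03 against -0.0026 for all genes tested. Without the members, 10 of 47 tested genes were called higher and 9 lower. Of all genes called, 51.2% were lower with TMM and 18.9% with total-count scaling, which moved the median of all genes by 0.27, and under that scaling 21 of the pathway genes were called higher and 6 lower. Relative to that shift, the members' log2 fold changes were close to those with TMM, namely -1.41 for *Mapk3*, -0.59 for *Erbb3*, -0.03 for *Erbb2*, 0.35 for *Dusp6* and 0.58 for *Spry2*. This closeness follows from the scaling, which moves every gene by about the same amount, and is no check of the members. Of 19 called genes followed one by one, 11 were called under every alternative that gave them a value, *Mapk3*, *Erbb3*, *Spry2*, *Nras*, *Frs2*, *Gab2*, *Adam10*, *Tgfa*, *Spred1*, *Dusp4* and *Egr1*.

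**Figure D4:**
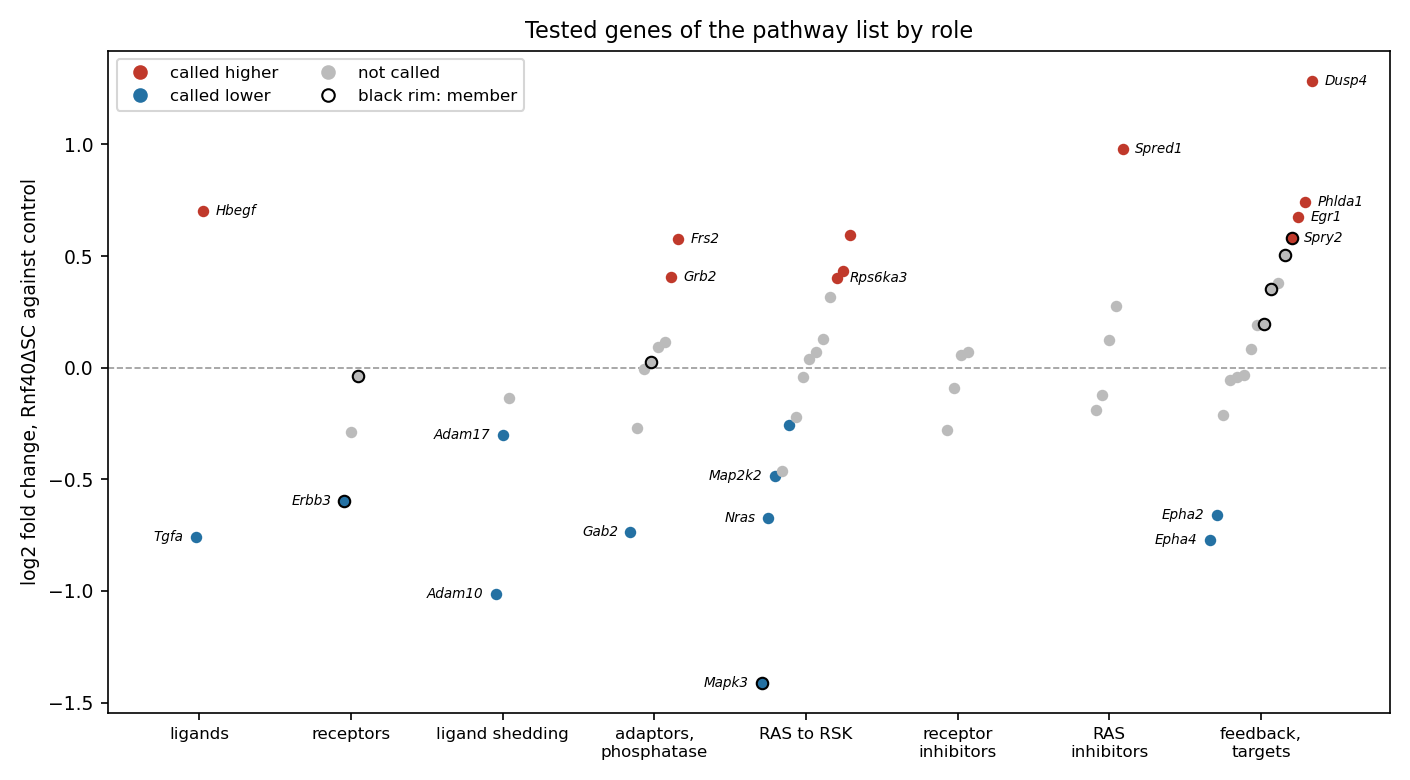
Log2 fold change between *Rnf40ΔSC* and control nerves (y axis) of the 55 tested genes of the pathway list, by role; red genes were called higher, blue genes lower, a black rim marks a member, and most called genes are named. Each of the roles with more than 3 called genes holds calls in both directions, 3 higher and 4 lower from Ras to the ERK-dependent kinases and 4 higher and 2 lower among feedback inhibitors and targets.

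The feedback members were then set against the upstream members in each library, as the mean log2 CPM of the former minus that of the latter. This difference was -1.30, -1.32 and -1.39 in control and -0.65, -0.47 and -0.49 in *Rnf40ΔSC* libraries. Every *Rnf40ΔSC* library was thus above every control library, with means of -1.34 ± 0.05 and -0.54 ± 0.10 (SD, n = 3 each). The genotypes differed by 0.80, by 0.78 without *Rnf40ΔSC* replicate 3 and by 0.88 without *Nrg1*, which has hardly any reads. Without *Nrg1* the means were -2.77 ± 0.15 in control and -1.89 ± 0.06 in *Rnf40ΔSC* nerves (SD, n = 3 each). The control libraries thus lay further apart than with *Nrg1* included. With *Mapk3* left out of the upstream members, an alternative chosen after seeing the data as was the one without *Nrg1*, the genotypes differed by 0.56. No test is given for a score over chosen genes.

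Per kb of exon, the order of the members in control nerves was *Mapk3* (451 ± 12.5 normalised read counts per kb, SD, n = 3), *Erbb3* (52.6 ± 3.61), *Erbb2* (46.2 ± 3.59), *Dusp6* (34.4 ± 5.13), *Spry2* (30.7 ± 2.41), *Ptpn11* (26.9 ± 0.736), *Spry4* (9.69 ± 1.22), *Etv5* (5.29 ± 0.623) and *Nrg1* (0.164 ± 0.285). The libraries of *Dusp6* and *Spry2* overlapped, and those of *Erbb3* and *Erbb2* came within 48.6 and 48.3 of each other. In *Rnf40ΔSC* nerves *Mapk3* (169 ± 7.31) was still first, followed by *Spry2* (46.4 ± 4.39), *Erbb2* (45.1 ± 3.99) and *Dusp6* (43.3 ± 3.04), whose libraries overlapped. *Erbb3* (34.8 ± 4.02) followed, before *Ptpn11* (27.1 ± 6.05), *Spry4* (10.9 ± 1.58), *Etv5* (7.27 ± 1.98) and *Nrg1* (0.0857 ± 0.148). *Erbb3* thus went from rank 2 to rank 5 and *Spry2* from rank 5 to rank 2.

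The genes most like *Mapk3* over the 6 libraries, by Pearson's r of log2 CPM, were *Limch1*, *Plekhg2* and *Ncmap* (r = 0.999 each), with log2 fold changes of -1.45, -0.89 and -2.01. Those most like *Spry2* were *Bnip2* (r = 0.997, log2 fold change 0.20, not called), *Kcnh8* (0.995, 0.82) and *Ppp1r14d* (0.995), which had 0, 1 and 0 reads in control and 14, 17 and 14 in *Rnf40ΔSC* libraries. Such values describe the separation of the genotypes above all, and 631 of 11370 genes reached an r over 0.95 with *Mapk3* and 325 with *Spry2*.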

How the data were processed

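RNA-Seq libraries of sciatic nerve were grouped by the genotype in the sample labels. The authors used TopHat for alignment to mm9 and HTSeq to assign unique reads, and the deposited values are whole-number counts that had not been normalised. Per the labels, the processing notes also name Bowtie2 2.1.0, DESeq2 and mm10. The gene annotation and the strand setting of the counting are not given in the sources used here, and the library kit differs between the methods (NEXTFLEX directional) and the labels (NEB Next Ultra). Reads of genes that overlap another annotated gene (of the pathway genes named, *Erbb2*, *Nrg1*, *Nrg3*, *Nrg4*, *Btc*, *Egf*, *Egfr*, *Erbb4*, *Bace1*, *Adam17*, *Grb2*, *Gab2*, *Araf*, *Braf*, *Map2k1*, *Egr1* and *Fosl1*) are therefore uncertain.

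Tests were run with edgeR 4.0.16 in R 4.3.3 (filterByExpr, TMM, robust quasi-likelihood fit on genotype alone, Benjamini-Hochberg adjustment over 11371 genes). Normalised read counts are counts scaled to the mean effective library size, and log2 CPM had a prior count of 2. Replicates differed by more than sampling noise (chi-square per degree of freedom 1.84 to 5.66) and were treated as separate samples. Positions are from GENCODE vM1 (mm9), counted from 1. The test was checked on simulated counts.

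Alternatives were RLE or total-count scaling, DESeq2 1.42.0 without and with a fold-change prior, an open filter or one of 10 counts in every library, the study's limits on size and level, a prior count of 0.5, the replicate number as a block, and each library left out. Members and lists were chosen with earlier results of these data known. Named were all members, per role of the pathway list the called genes (at most 3 with the smallest adjusted p) and those with fewer than 10 reads in every library, per marker list the most abundant gene and called genes changed by 1 or more on the log2 scale (at most 3), *Rnf40*, *Rnf20*, and the 3 genes most like the leading upstream and feedback member. No list was tested as a set. Some genes that this rule takes are counted in the lists but not reported here.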

Additional observations from a re-analysis of the deposited data

How the results depend on the processing

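*Mapk3*, *Erbb3* and *Spry2* kept their direction and call under all 13 alternatives (-1.43 to -1.14, -0.70 to -0.33 and 0.51 to 0.85), and *Spry4* was not called under any (0.07 to 0.46). Scaling by total counts, which raises all genes by about 0.27, turned *Erbb2* to 0.23, called *Dusp6* (0.62) and *Etv5* (0.77), and gave 3766 higher and 880 lower genes in place of 1756 and 1841, 21 of the pathway list higher and 6 lower. A minimum of 10 counts in every library also called *Dusp6* (0.37). DESeq2 called 1097 higher and 1170 lower genes without and 1123 and 1191 with a fold-change prior, and 7 pathway genes lower with either. With the study's limits on size and level 424 genes were higher and 574 lower, and 2 pathway genes in each direction. With single libraries left out, log2 fold changes ran from -0.10 to 0.019 for *Erbb2* (0.019 without *Rnf40ΔSC* replicate 2), -0.057 to 0.19 for *Ptpn11* (-0.057 without *Rnf40ΔSC* replicate 1 and -0.05 without replicate 3), 0.29 to 0.46 for *Dusp6* and 0.39 to 0.68 for *Etv5*, and counts from 1293 to 1915 higher and 1439 to 1992 lower genes and from 9 to 11 and 8 to 10 pathway genes. The difference between feedback and upstream members ranged from 0.77 to 0.88 over the other alternatives and was 0.56 without *Mapk3*, whose own fall the mean then lacks. The cause of the other changes was not tested.

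Replicate numbers are shared by both genotypes, but same-numbered libraries did not deviate together (r = -0.09, -0.02 and -0.06), and no library correlated best with its own number. With the replicate number as a block 1727 genes were called higher and 1837 lower, the calls of the members stayed as they were, and *Ptpn11*, close to 0 in both fits, had a log2 fold change of -0.000102. At 1317167 to 2468765 reads per library, *Nrg1* and other genes with a few reads have no usable estimate, and the intervals of *Etv5* and *Spry4* are wide.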

Other observations

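A pair of low genes of the pathway list that were not tested, chosen after their values were seen, had more reads in *Rnf40ΔSC* libraries. *Btc*, which encodes the ErbB ligand betacellulin, had 0, 1 and 4 reads in control and 14, 5 and 19 in *Rnf40ΔSC* libraries, and *Fosl1*, an AP-1 subunit induced by ERK, had 1, 0 and 0 against 6, 8 and 7. For both, every *Rnf40ΔSC* library was above every control library. Both overlap another annotated gene (*Gm15710* for *Btc* and *Ccdc85b* for *Fosl1*), so that the origin of these few reads is uncertain.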
